A study of Mus musculus with 4 samples.

Results

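The growth hormone (GH) to IGF1 axis is described here by 10 genes in mouse liver, chosen by symbol and found as 10 of the 56953 gene rows of the count table. They are the receptor gene Ghr, the effector Igf1, its carrier Igfals, the feedback inhibitors Socs2 and Cish, the binding-protein genes Igfbp1, Igfbp2, Igfbp3 and Igfbp4, and Igf2r. All 10 passed the filter on low counts and stood among the 14600 genes tested. The deletion livers came from mice with Ubc13 flox/flox alleles that were Alb positive and are labelled as a hepatic Ubc13 deletion (2 libraries, called deletion). Their controls carried the same Ubc13 flox/flox alleles and were Alb negative, labelled WT (2 libraries, called control). All mice were 2 months old and on a normal diet. Ubc13, the protein of Ube2n, builds K63-linked ubiquitin chains, and the albumin promoter is active mainly in hepatocytes, not in the other liver cells of the sample. The labels do not say that replicates came from separate animals, so p-values measure only the spread between these samples.

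In the liver, GH binds its receptor and activates the kinase JAK2 and the transcription factors STAT5A and STAT5B, which switch on Igf1, Igfals, Socs2 and Cish. SOCS2 and CISH then damp the receptor's signal. IGF1 leaves the liver and circulates mostly in a complex with IGFBP3 and the acid-labile subunit encoded by Igfals, while IGFBP1, IGFBP2 and IGFBP4 bind IGFs in smaller complexes. Igfbp1 is repressed by insulin through FOXO1. IGF2R carries lysosomal enzymes and takes up IGF2 for breakdown. GH reaches the liver in pulses in male rodents and more steadily in females, and many sex-biased liver genes follow that rhythm. In cultured cells, Ubc13 and the ubiquitin ligase CHIP have been reported to take part in endocytosis of the GH receptor.

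Promoter windows from RefSeq (GRCm38.p6), with 250 bases before and 50 from each start, were held for 9 of the 10 genes, in 13 windows. They were searched on both strands for TTCNNNGAA, the palindromic core that STAT5 binds, and for CAAAACA, part of the insulin response element. The STAT5 core was in 3 of the 13 windows, which belong to Igfals and Cish, and in 8.3% of all 32851 windows. Window 3 of Igfals held 0 copies. The Cish window held 2 copies, and 0.457% of all windows held more than 1. A match describes letters and not a site in use. CAAAACA was in the Igfbp1 window and in 6.28% of all windows. The matching stretches are shown because Igfals and Cish, both STAT5 targets, lay on opposite sides of the controls in the deletion libraries. Neither passed the edgeR test. Igfbp1 is shown as the insulin-regulated member. Capitals mark the match, all on the plus strand, at chr17:24877598-24877627 and chr17:24878163-24878192 for Igfals, chr9:107296654-107296683 for Cish and chr11:7197537-7197781 for Igfbp1.
Igfals, first start: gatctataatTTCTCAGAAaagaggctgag
Igfals, second start: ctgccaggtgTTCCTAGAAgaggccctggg
Cish: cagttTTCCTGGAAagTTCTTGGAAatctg
Igfbp1: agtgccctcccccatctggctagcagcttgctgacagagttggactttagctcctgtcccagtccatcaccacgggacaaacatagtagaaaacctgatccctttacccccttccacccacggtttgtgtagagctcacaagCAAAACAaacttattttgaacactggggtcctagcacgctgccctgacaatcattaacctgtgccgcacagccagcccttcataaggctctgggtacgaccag

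Libraries held 16270424 to 17800138 counts. Levels are given as CPM, the count relative to the library total after TMM scaling, and 3 counts correspond to 0.154 to 0.206 CPM. Ube2n had 5.87 and 5.96 CPM in the deletion libraries against 41.2 and 44.9 CPM in the controls. The libraries stood apart in sex-linked transcripts. Xist, made in female cells, had 9590 and 3896 counts in deletion replicates 1 and 2 and 9 and 2 counts in control replicates 1 and 2. The summed level of Ddx3y, Uty, Kdm5d and Eif2s3y, which lie on the Y chromosome, relative to the control mean came to 0 and 0.613 in deletion replicates 1 and 2, against 0.969 and 1.03 in the controls. Genotype and this difference cannot be told apart here, and calls among the axis genes are therefore also given without each deletion library. Markers of hepatocytes were lower in the deletion libraries. The 10 markers summed to 65202 and 59441 CPM there, against 157956 and 155297 CPM in the controls, and 3 of 10 fell (Ttr, Cyp2e1 and Serpina1c), with a median log2 fold change of -1.14 for the list. In such bulk samples fewer cells of a type and less RNA per cell cannot be told apart. Kupffer cell genes such as Clec4f (249 and 200 CPM in the deletion libraries, 117 and 176 CPM in the controls) were detected in all libraries, while the library protocol in the labels speaks of primary hepatocyte RNA. Markers of monocyte-derived macrophages summed to 606 and 553 CPM in the deletion libraries and 114 and 117 CPM in the controls (5 of 9 rose), with a median log2 fold change of 1.99. Of 9 tested cholangiocyte markers, 2 rose (Sox9 and Spp1), the 6 with a negative log2 fold change did not pass, and the list median was -0.77. Their sum of 1375 and 1977 CPM in the deletion libraries, against 177 and 81.1 CPM in the controls, was mostly Spp1 (1325 and 1913 CPM against 50.3 and 52.4 CPM). Stellate cell markers summed to 655 and 646 CPM against 837 and 666 CPM, and 1 of 12 fell (Ecm1). By the edgeR test, 4.41% of all tested genes rose and 2.16% fell at an adjusted p under 0.05. The part of these cell types in the results on the axis was not tested.

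The binding-protein genes Igfbp2 and Igfbp3 fell in the deletion livers, and no other axis gene passed the test. Of the 10 genes, 0 rose, 2 fell and 8 did not pass at an adjusted p under 0.05 (edgeR quasi-likelihood test), where 6.57% of all tested genes were called, 2.16% as lower and 4.41% as higher. Without adjustment, 1 gene was higher and 5 were lower at a p under 0.05, as 24.4% of all tested genes were in either direction. DESeq2 called 5 of the 10, all lower (Ghr, Igf1, Igfals, Igfbp2 and Igfbp3), and 11.3% of all genes (6.8% higher and 4.48% lower). The groups did not overlap for 8 of the 10 genes, as for 56% of all tested genes. Both deletion libraries were below both controls for 6 genes and above them for 2, orders that 27.3% and 28.7% of all tested genes showed. The median log2 fold change of the 10 genes was -0.73, against 0.00 over all tested genes. With deletion replicate 1 left out 2 genes were called lower (3.24% of all genes were called), and with deletion replicate 2 left out 1 was called lower and 1 higher (2.24% of all genes). A fit that added the Y-linked level as a term (the male RNA covariate), with 1 residual degree of freedom, called 0 of the 10 and 0.445% of all genes. Ube2n itself did not pass in that fit (log2 fold change -2.82, edgeR adjusted p = 0.0643). Calls lost in it therefore cannot be read as a link to sex-linked transcripts.

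**Figure D1:**
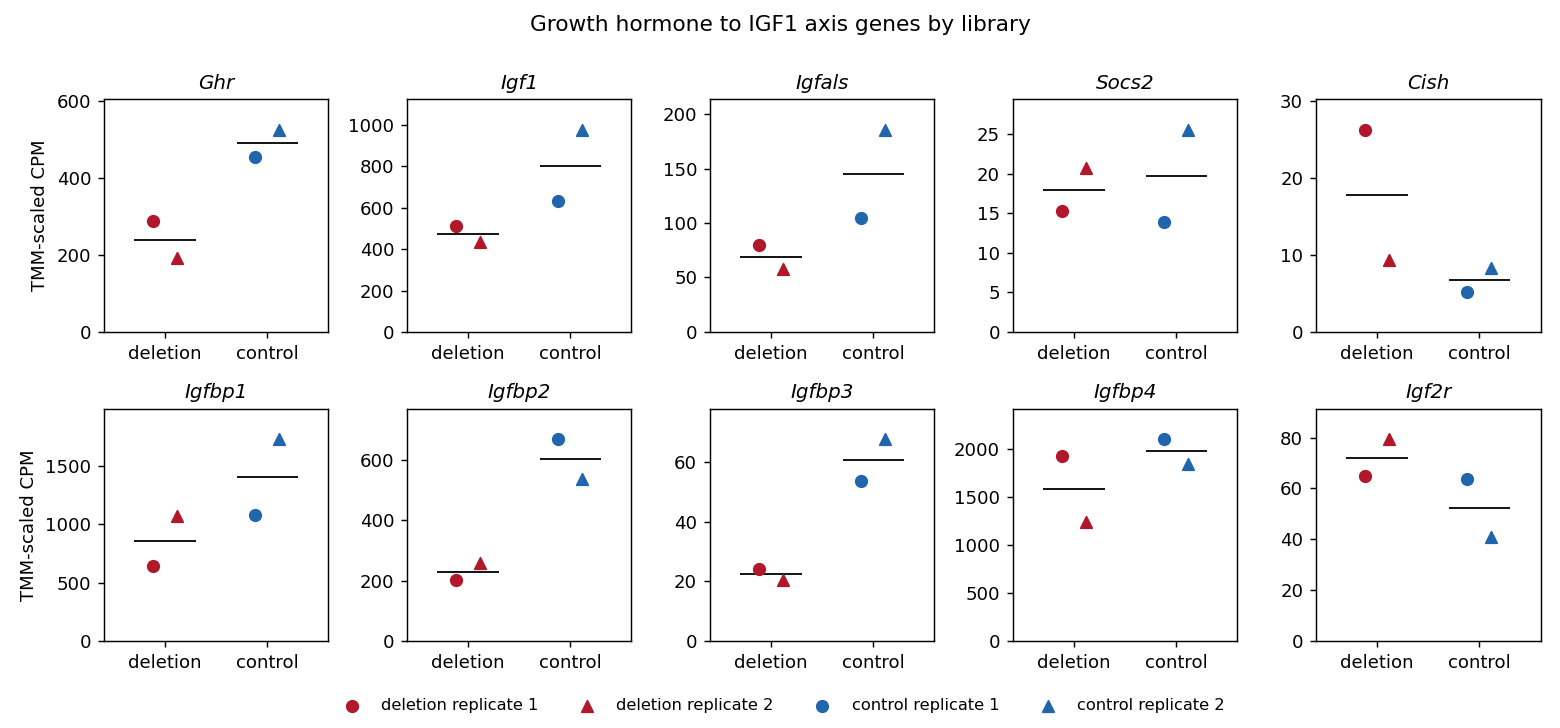
TMM-scaled CPM (y axis, from 0) of the 10 axis genes in each library, with deletion left of control, a circle for replicate 1, a triangle for replicate 2 and a line at the group mean of 2 libraries. Igfbp2 and Igfbp3 sit low in both deletion libraries (201 and 259 CPM, 24.1 and 20.7 CPM), while Cish is high mainly in deletion replicate 1 (26.2 CPM).

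Ghr, the gene of the GH receptor, had 288 and 192 CPM in the deletion libraries and 455 and 525 CPM in the controls. Both deletion libraries lay below both controls, by more than either pair differed. The log2 fold change was -1.03 ± 0.24 (SE), with a 95% interval of -1.60 to -0.46, and missed the threshold (edgeR adjusted p = 0.0581). Over 12 alternative fits the value stayed negative, from -1.70 to -0.74, and 5 fits called it. It was called without deletion replicate 1 (log2 fold change -1.36, adjusted p = 0.0432), without either control and with DESeq2 (0.00118), and not without deletion replicate 2 (log2 fold change -0.77, adjusted p = 0.228). Ghr (ENSMUSG00000055737) lies on the minus strand of chromosome 15 from 3317760 to 3583492 (GRCm38). The last exon of its longest coding transcript, where 3' libraries read that transcript, spans 3317760 to 3320722. Ghr has 5 coding transcripts that end at 5 different places, and gene totals cannot tell these ends apart.

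Igf1, the hormone gene that GH drives in hepatocytes, had 513 and 436 CPM in the deletion libraries and 630 and 976 CPM in the controls. The groups did not overlap, but the controls differed from each other more than control replicate 1 differed from the deletion libraries. DESeq2 called Igf1 lower (adjusted p = 0.0375). The edgeR log2 fold change of -0.76 ± 0.25 (1.69-fold lower, 95% interval -1.37 to -0.15) did not pass (edgeR adjusted p = 0.134). It was -1.04 without control replicate 1 (adjusted p = 0.0120) and -0.41 without control replicate 2 (adjusted p = 0.345). Igf1 (ENSMUSG00000020053) lies on the plus strand of chromosome 10 from 87858265 to 87937042, with 8 coding transcripts that end at 8 different places, so a table of gene totals cannot tell its 3' ends apart. The antisense gene Igf1os overlaps it and had 11 and 16 counts in the deletion libraries and 11 and 14 in the controls, against 8489 to 14222 counts for Igf1.

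Igfals, which encodes the acid-labile subunit of the circulating IGF1 complex, ranked the 4 libraries in the same order as Igf1. It had 79.7 and 57.8 CPM in the deletion libraries and 104 and 186 CPM in the controls, again with no overlap and with a wider gap between the controls than between the groups. DESeq2 called Igfals lower (adjusted p = 0.0105). By edgeR its log2 fold change was -1.07 ± 0.31 and did not pass (95% interval -1.82 to -0.33, edgeR adjusted p = 0.0986). Control replicate 2 carried much of that value, which was -1.44 without control replicate 1 (adjusted p = 0.000483) and -0.60 without control replicate 2 (adjusted p = 0.0953). Igfals (ENSMUSG00000046070) lies on the plus strand of chromosome 17 from 24865997 to 24882010. Its 2 windows with a STAT5 core are those printed above.

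By the distance between centred log2 values over the 4 libraries, the 5 tested genes most like Igf1 were Sel1l, Fgf1, Tasp1, Trabd and Ttc7b, at distances of 0.0677 to 0.132 log2 units. With only 4 libraries such likeness is common, and 812 tested genes lay within 0.5 log2 units of Igf1. Among the axis genes Igfals was nearest, at 0.368 log2 units and rank 238, and Ghr followed at 0.509 and rank 876. Cish (2.11) and Igf2r (1.55) were farthest. These distances are descriptions of the same 4 libraries and share their scaling.

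**Figure D2:**
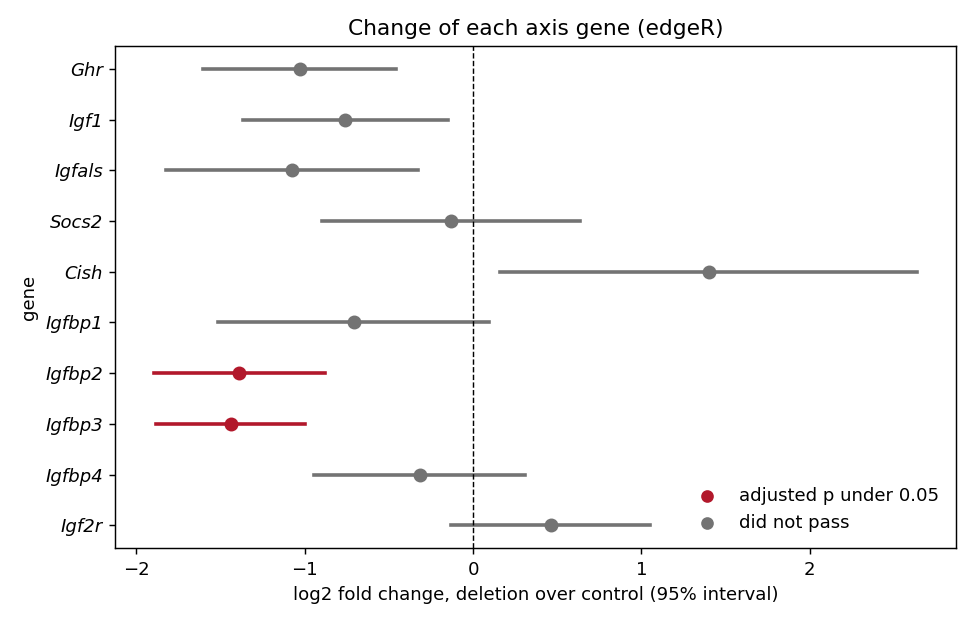
Log2 fold change of each axis gene, deletion over control (x axis), with its 95% interval as a line; red marks an adjusted p under 0.05 and grey a gene that did not pass. Igfbp2 (-1.39) and Igfbp3 (-1.44) lie below 0 in red, and the widest interval belongs to Cish (0.16 to 2.64).

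Neither feedback inhibitor passed the test. Cish, an early STAT5 target that blocks the receptor's signal, had 26.2 and 9.30 CPM in the deletion libraries and 5.17 and 8.30 CPM in the controls, from 478, 181, 84 and 121 counts. Deletion replicate 1 stood far above the rest, and deletion replicate 2 lay only just above control replicate 2. At 1.40 ± 0.51, its log2 fold change did not pass (edgeR adjusted p = 0.163). Without deletion replicate 1 it was 0.46 (adjusted p = 0.625) and without deletion replicate 2 it was 1.96 (adjusted p = 0.0448). With the male RNA covariate it was -0.40 (adjusted p = 0.888). The same library, deletion replicate 1, held the most Xist and none of the Y-linked transcripts. With 1 residual degree of freedom, the covariate fit cannot tell that apart from other differences between the deletion libraries. How Cish relates to those transcripts was not tested. Cish (ENSMUSG00000032578) lies on the plus strand of chromosome 9 from 107296026 to 107302784, and its STAT5 cores are at bases 1 to 9 and 12 to 20 counted from the RefSeq start. The pseudogene Gm17040 overlaps it on the other strand and had 5 and 1 counts in the deletion libraries and 10 and 21 in the controls.

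Socs2, the inhibitor whose loss in mice gives overgrowth, had 15.3 and 20.7 CPM in the deletion libraries and 13.9 and 25.6 CPM in the controls. The groups overlapped fully. Its log2 fold change was -0.13 ± 0.31 with a 95% interval of -0.90 to 0.63 (edgeR adjusted p = 0.845), and 4 of 12 alternative fits turned its sign, library sizes alone among them (0.17). Socs2 (ENSMUSG00000020027) lies on the minus strand of chromosome 10 from 95385362 to 95417180. In deletion replicate 1 Cish stood at 3.89 times the control mean while Socs2 stood at 0.772 times it, and in deletion replicate 2 these ratios were 1.38 and 1.05.

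Among the binding-protein genes, Igfbp3 and Igfbp2 fell and Igfbp1 and Igfbp4 did not pass. Igfbp3, the carrier in the large IGF1 complex, had 24.1 and 20.7 CPM in the deletion libraries and 53.7 and 67.6 CPM in the controls. The means were 22.4 ± 2.43 CPM in the deletion libraries and 60.7 ± 9.85 CPM in the controls (SD, n = 2 each), and the gap between the groups was wider than the spread within either. It fell 2.71-fold, a log2 fold change of -1.44 ± 0.18 (95% interval -1.88 to -0.996, edgeR adjusted p = 0.0123, with both deletion libraries lower). The call held in 10 of 12 alternative fits, without deletion replicate 1 too (log2 fold change -1.56, adjusted p = 0.0332), but not without deletion replicate 2 (-1.33, adjusted p = 0.0646) or with the male RNA covariate (-1.65, adjusted p = 0.214). In rat liver Igfbp3 is made mainly by non-parenchymal cells. Of 10 markers of sinusoidal endothelium 0 rose, 1 fell (Ptprb) and the list median was -0.37. Of 9 Kupffer cell markers 1 rose (Cd5l), 0 fell and the median was 0.60, where 4.41% of all tested genes rose and 2.16% fell. The part of these cells in the Igfbp3 level was not tested. Igfbp3 (ENSMUSG00000020427) lies on the minus strand of chromosome 11 from 7206086 to 7213923.

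Igfbp2, a binding protein made by hepatocytes, had 201 and 259 CPM in the deletion libraries and 668 and 537 CPM in the controls. The deletion libraries stood at 0.334 and 0.429 times the control mean, clear of both controls. It fell 2.62-fold, a log2 fold change of -1.39 ± 0.21 (95% interval -1.90 to -0.88, edgeR adjusted p = 0.0196, again in both deletion libraries). The call held without deletion replicate 2 (log2 fold change -1.58, adjusted p = 0.0448) and was lost without deletion replicate 1 (-1.23, adjusted p = 0.0642) and with the male RNA covariate (-1.03, adjusted p = 0.413). Igfbp2 (ENSMUSG00000039323) lies on the plus strand of chromosome 1 from 72824503 to 72852474. Neither the Igfbp2 nor the Igfbp3 windows held either motif.

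Igfbp1, the binding protein that insulin represses, had 648 and 1070 CPM in the deletion libraries and 1077 and 1731 CPM in the controls. The upper deletion library and the lower control nearly met, and replicates of both groups differed by over 1.5 times. The log2 fold change was -0.71 ± 0.33 with a 95% interval of -1.52 to 0.10 (edgeR adjusted p = 0.255), and with the male RNA covariate it was 0.14 (adjusted p = 0.952). Igfbp4, the most abundant of the 10 transcripts, had 1924 and 1246 CPM in the deletion libraries and 2103 and 1846 CPM in the controls, which overlapped. Its log2 fold change was -0.32 ± 0.26 (95% interval -0.95 to 0.31, edgeR adjusted p = 0.512). Igfbp1 (ENSMUSG00000020429, 7197782 to 7202546) and Igfbp4 (ENSMUSG00000017493, 99041244 to 99054392) lie on the plus strand of chromosome 11.

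Within each library, Igfbp2 and Igfbp3 made up a smaller part of the binding-protein transcripts in both deletion libraries than in either control. Of all counts for the 4 genes, Igfbp2 held 7.20% (95% exact Clopper-Pearson interval 6.98 to 7.43) and 9.97% (9.71 to 10.2) in deletion replicates 1 and 2, against 17.1% (16.8 to 17.4) and 12.8% (12.6 to 13.1) in control replicates 1 and 2. Igfbp3 held 0.861% (0.783 to 0.945) and 0.796% (0.720 to 0.878) in the deletion libraries, against 1.38% (1.29 to 1.47) and 1.62% (1.52 to 1.72) in the controls. The intervals cover counting error only. The shares of Igfbp1 did not part by genotype, with 23.2% and 41.2% in the deletion libraries and 27.6% and 41.4% in the controls. Igfbp4 held the rest, 68.8% and 48.0% in the deletion libraries and 53.9% and 44.1% in the controls. The 4 genes together had 5.45 and 5.95 counts per count of Igf1 in the deletion libraries and 6.19 and 4.29 in the controls, so this ratio overlapped between the groups.

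**Figure D3:**
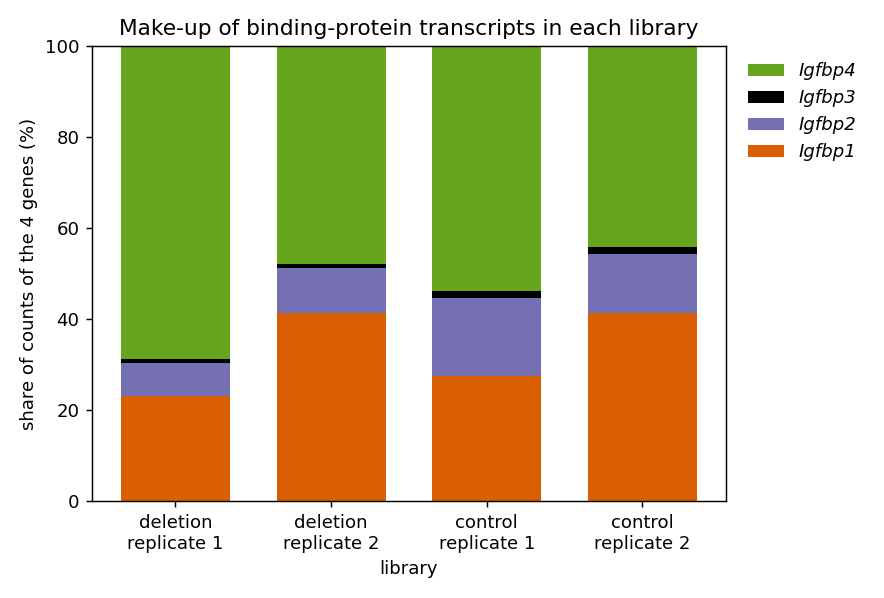
Share of the counts of Igfbp1, Igfbp2, Igfbp3 and Igfbp4 (y axis, %, summing to 100) in each library, deletion left of control. The Igfbp2 band is 7.20% and 9.97% in the deletion libraries and 17.1% and 12.8% in the controls, while the Igfbp1 band varies as much within a group as between them.

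Igf2r, the receptor for IGF2 and for mannose 6-phosphate on lysosomal enzymes, had 64.8 and 79.4 CPM in the deletion libraries and 63.8 and 40.9 CPM in the controls. Deletion replicate 1 and control replicate 1 were nearly equal. The log2 fold change was 0.46 ± 0.24 (95% interval -0.13 to 1.05, edgeR adjusted p = 0.309). Igf2r (ENSMUSG00000023830) lies on the minus strand of chromosome 17 from 12682406 to 12769664, and the antisense RNA gene Airn overlaps it. Airn had 39 and 66 counts in the deletion libraries and 22 and 10 in the controls, and Igf2r had 1180 and 1545 counts against 1035 and 596. The strand setting of the counting is not given in the sources used here, so reads of such partners cannot be told apart.

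Because 3' libraries count transcripts and not their length, levels can be set beside each other between genes. In the deletion libraries mean CPM ran in the order Igfbp4 (1585), Igfbp1 (859), Igf1 (475), Ghr (240), Igfbp2 (230), Igf2r (72.1), Igfals (68.7), Igfbp3 (22.4), Socs2 (18.0) and Cish (17.8). Ghr and Igfbp2, Igf2r and Igfals, Igfbp3 and Socs2, Igfbp3 and Cish, and Socs2 and Cish overlapped there between replicates. In the controls the order was Igfbp4 (1974), Igfbp1 (1404), Igf1 (803), Igfbp2 (603), Ghr (490), Igfals (145), Igfbp3 (60.7), Igf2r (52.3), Socs2 (19.8) and Cish (6.74), where Igf1 and Igfbp2, and Igfbp3 and Igf2r, overlapped. Igf2r stood clear above Igfbp3 in the deletion libraries only, and clear below Igfals in the controls only, which is a description with no test. How well reads of each gene can be placed may differ, which limits levels between genes.

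Set against albumin, the differences took another form. Alb, the hepatocyte's main secreted protein, had 45246 and 42826 CPM in the deletion libraries and 118882 and 114798 CPM in the controls. Per 1000 Alb counts, Igf1 stood at 11.3 and 10.2 in the deletion libraries and 5.30 and 8.50 in the controls, and Ghr at 6.36 and 4.47 against 3.82 and 4.57. Like Igf1, Socs2, Cish, Igfbp4 and Igf2r lay above both controls in both deletion libraries, and the other axis genes overlapped. The share of all tested genes in that order on this scale was not counted. The number of axis genes in it is therefore no result about them. As Alb was itself lower in the deletion libraries, this scale raises any gene that fell less than Alb. On this scale Igfbp2 (4.45 and 6.04 in the deletion libraries, 5.62 and 4.68 in the controls) and Igfbp3 (0.532 and 0.482 against 0.452 and 0.589) overlapped between the groups. The log2 fold change of Alb in CPM was -1.41 ± 0.33 (edgeR adjusted p = 0.0612), beside -1.39 for Igfbp2, -1.44 for Igfbp3 and -0.76 for Igf1. What part of each difference goes with the amount of hepatocyte RNA was not tested.

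The receptor's signalling machinery was called about as often as genes at large. Of 29 genes of GH receptor signalling, 1 rose, 1 fell and 27 did not pass (6.90%, against 6.57% of all genes), with a median log2 fold change of 0.16. The member that fell was Prlr, the receptor of the related hormone prolactin, with 73.6 and 89.5 CPM in the deletion libraries and 175 and 198 CPM in the controls (log2 fold change -1.19 ± 0.17, edgeR adjusted p = 0.0172). Prlr no longer passed with deletion replicate 1 left out (adjusted p = 0.0724) or deletion replicate 2 left out (0.0523). With library sizes alone 5 genes of the list were called higher and 1 lower, where 12.1% of all genes were called. The kinase gene Jak2 was at 0.59 ± 0.20 (edgeR adjusted p = 0.147). Stat5a and Stat5b were at -0.18 ± 0.27 and -0.19 ± 0.19 (0.742 and 0.588) and turned positive with library sizes alone. The inhibitors Socs1 (1.59 ± 0.58) and Socs3 (0.69 ± 0.21) were above both controls in both deletion libraries without passing (edgeR adjusted p = 0.163 and 0.117). Stub1, the gene of CHIP, was at -0.10 ± 0.14 and Btrc, a ligase gene also tied to receptor uptake, at 0.36 ± 0.35 (edgeR adjusted p = 0.724 and 0.594).

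In the rest of the IGF system no gene passed. Of 18 genes, 13 were tested and 0 were called by edgeR, with 3 higher and 2 lower at an unadjusted p under 0.05 and 1 called higher by DESeq2. Of all tested genes, edgeR called 6.57%, 24.4% had an unadjusted p under 0.05 and DESeq2 called 11.3%. Igf1r, the IGF1 receptor gene, had 2.14 and 2.78 CPM in the deletion libraries and 3.39 and 5.08 CPM in the controls (log2 fold change -0.78 ± 0.35, edgeR adjusted p = 0.242). The insulin receptor gene Insr was at -0.15 ± 0.22 (edgeR adjusted p = 0.741). Igf2, a fetal growth factor that adult mouse liver shuts off, had 1 count over the deletion libraries and 0 over the controls.

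Of genes that respond to GH in liver, 1 rose and 1 fell, which is 16.7% of the list against 6.57% of all tested genes. Of these 12 genes known to respond to GH or STAT5, Cd36, a fatty acid transporter, rose (73.2 and 61.8 CPM in the deletion libraries, 24.1 and 24.4 CPM in the controls, log2 fold change 1.47 ± 0.16, edgeR adjusted p = 0.00800). Lifr, the leukaemia inhibitory factor receptor, fell (140 and 112 CPM in the deletion libraries, 379 and 1238 CPM in the controls, -2.68 ± 0.54, edgeR adjusted p = 0.0419), a call lost without deletion replicate 1 (0.0972) or 2 (0.177). DESeq2 called 2 higher and 3 lower, and 11.3% of all genes. By edgeR the other 10 did not pass, among them Bcl6 (-0.84 ± 0.25, edgeR adjusted p = 0.110), a repressor that STAT5 lowers, and Onecut1 (0.55 ± 0.37, 0.423), a factor that GH raises. The list median was -0.27.

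Of 23 tested male-biased genes 0 rose and 8 fell (34.8% called, against 6.57% of all tested genes and 2.16% called lower), with a median of -1.11, while 2 were higher at an unadjusted p under 0.05 and DESeq2 called 2 higher and 11 lower (11.3% of all genes). Examples are the steroid dehydrogenase Hsd3b5 (0.0549 and 0.257 CPM in the deletion libraries, 14.6 and 61.7 CPM in the controls), the peroxisomal coenzyme A hydrolase Nudt7 (170 and 97.1 against 485 and 455 CPM) and the acyltransferase Keg1 (59.3 and 60.6 against 129 and 117 CPM). Of 25 tested female-biased genes 0 rose and 7 fell (28% called, median -1.49). DESeq2 called 0 higher and 10 lower, and without adjustment 0 were higher at a p under 0.05. Of all tested genes, 24.4% had an unadjusted p under 0.05 in either direction. Examples, beside Prlr, are the hydroxy acid oxidase Hao2 (4.12 and 3.91 CPM in the deletion libraries, 58.2 and 22.8 CPM in the controls) and the oxysterol hydroxylase Cyp39a1 (62.6 and 53.3 against 128 and 117 CPM). Mup3, Mup1, Serpina1e, Cyp2c40 and Acot3 also fell, but they share sequence with near-identical copies and their single values are uncertain. The median of the male-biased list on the log2 scale relative to the control mean stood at -1.09 and -1.38 in deletion replicates 1 and 2 and at -0.88 and 0.54 in control replicates 1 and 2, so control replicate 1 lay near the deletion libraries. That of the female-biased list was -1.45 and -1.19 in the deletion libraries and 0.065 and -0.068 in the controls. Single genes of that list still differed widely between control replicates 1 and 2, in both directions. Sult2a1 had 312 and 6.65 CPM there, and Cyp17a1 had 70.8 and 149 CPM. With the male RNA covariate 0 genes of either list were called. That fit called only 0.445% of all tested genes, so the 0 is no result about either list. With each library left out, fewer genes of each list were called without a deletion library and more without a control. All called genes of the lists were lower without a deletion library, while some of each list were higher without a control. Over all genes too, fewer were called without a deletion library and more without a control than with all libraries.

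Regulators of Igfbp1 were followed through 2 further lists. Of 18 insulin and FOXO1 responsive genes 0 rose and 2 fell by edgeR (11.1%, against 6.57% of all tested genes). Without adjustment 1 was higher at a p under 0.05, and DESeq2 called 0 higher and 3 lower (11.3% of all genes). The genes edgeR called were the gluconeogenic enzyme gene Pck1 (2865 and 3149 CPM in the deletion libraries, 6029 and 5848 CPM in the controls, log2 fold change -0.98 ± 0.21, edgeR adjusted p = 0.0487) and the transcription factor gene Klf15 (-0.78 ± 0.16, 0.0429). Both lost their calls without deletion replicate 1 or 2 (adjusted p = 0.127 to 0.186) and with library sizes alone (0.0704 and 0.104). Of 15 tested genes of the ATF4 stress response, which can also raise Igfbp1, edgeR called 0, with 1 higher and 2 lower at an unadjusted p under 0.05 and 0 called by DESeq2. Of all tested genes, 24.4% had an unadjusted p under 0.05 in either direction and DESeq2 called 11.3%.

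**Figure D4:**
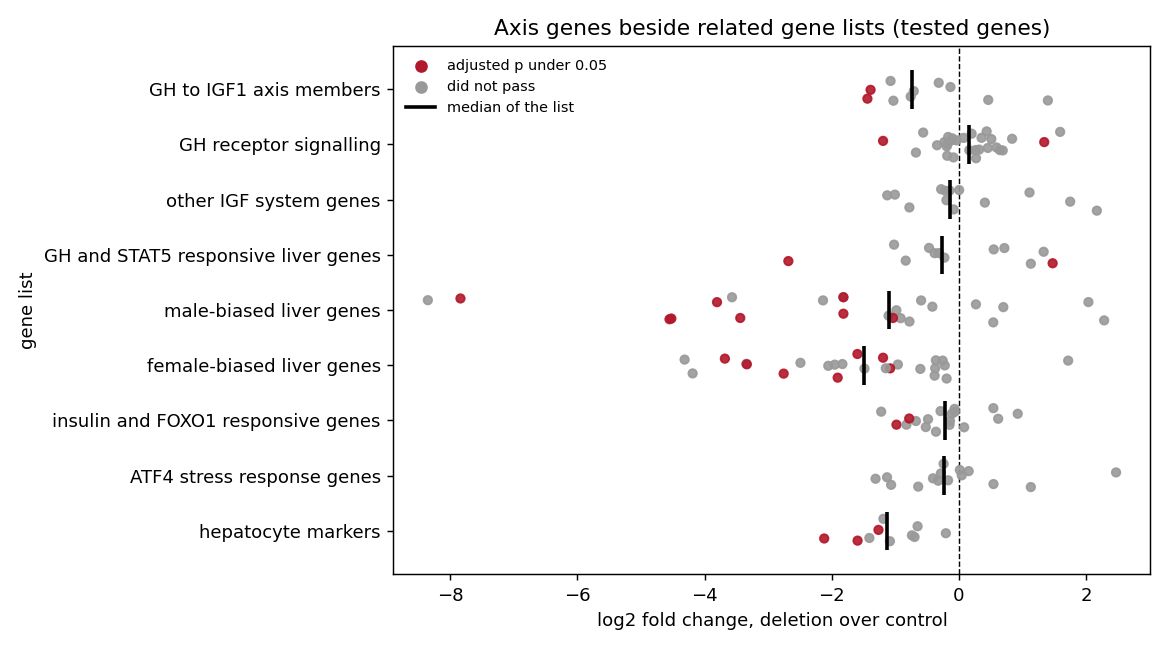
Log2 fold change, deletion over control (x axis), of each tested gene of the axis and of related lists (y axis; vertical jitter only separates points), with red for an adjusted p under 0.05, grey for a gene that did not pass and a black bar at the list median. The axis median of -0.73 lies between those of GH receptor signalling (0.16) and of hepatocyte markers (-1.14).

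The calls depended on single libraries. Without control replicate 1, 7 of the 10 genes were called, 6 lower and 1 higher (Igf2r), where 11.1% of all genes were called. Without control replicate 2, 4 were called, namely Ghr, Igfbp2 and Igfbp3 lower and Cish higher, where 13.4% of all genes were called. Without deletion replicate 1, Ghr and Igfbp3 were called lower, and without deletion replicate 2, Igfbp2 lower and Cish higher. Each such fit has 1 library in a group, which is assumed to vary like the others.

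**Figure D5:**
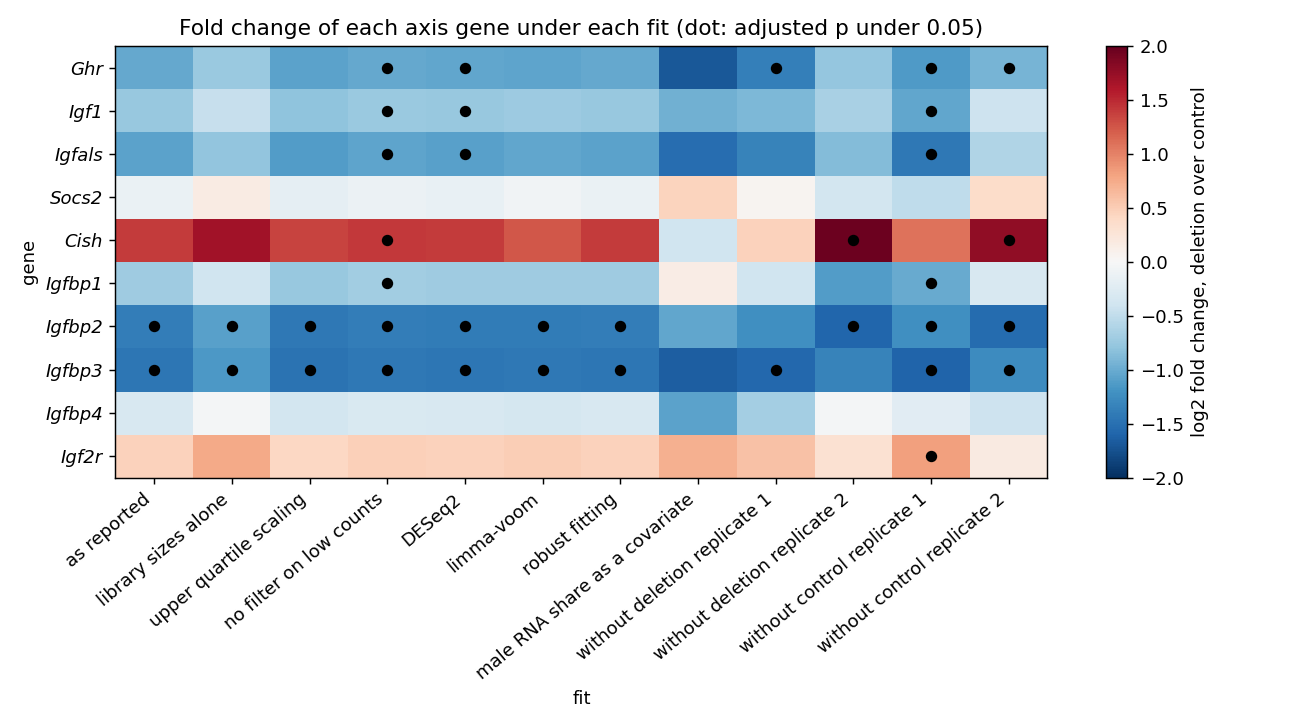
Log2 fold change of each axis gene (rows, colour scale, deletion over control) under the reported fit and 11 of the 12 alternatives (columns; the fit with replicate number as a block is not drawn); a dot marks an adjusted p under 0.05. Igfbp2 and Igfbp3 carry dots in most columns but none with the male RNA covariate, and Cish changes from red to blue there.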

How the data were processed

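RNA of 4 liver samples went into QuantSeq 3' libraries, sequenced on a NextSeq 550 (75 bp, single end), per the labels' protocols. The authors deposited raw counts per Ensembl gene after alignment with Bowtie2 to mm10 (GRCm38), per the labels and the submitters' processing notes. Neither the counter nor its strand setting or annotation is named in the labels. The table has 4 sample columns and 0 others. Symbols came from a table of gene names matched by Ensembl identifier, for 52029 of 56953 rows, and coordinates from GENCODE M21 (GRCm38). A symbol shared by several identifiers stayed with the one with more counts.

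Groups were compared by the two-sided quasi-likelihood test of edgeR 4.0.16 in R 4.3.3, run on the deposited counts with a single genotype term, TMM scaling and filterByExpr (minimum count 10, total 15). Calls needed an adjusted p under 0.05 (Benjamini-Hochberg over 14600 genes). SEs were derived from the log2 fold change and its F value, and intervals use 2 residual and 4.14 prior degrees of freedom. An exact permutation test of 2 libraries against 2 cannot give a two-sided p below 0.333, and none was used. Alternatives were DESeq2 1.42.0, limma 3.58.1 with voom, robust fitting, other scalings, no filter, a replicate block, a covariate for Y-linked transcripts and each library left out. The script was tested on simulated data. The replicates of each group differed by far more than counting noise (chi-square per degree of freedom 25.3 for deletion and 38.9 for control), so no pair was 1 library deposited under both names. The axis genes, the lists and the tests were chosen with earlier results of these data known. All 10 axis genes are named. From each list, up to 6 called genes with the smallest p are named, with a fixed set of receptor and pathway genes, and other names were chosen after their values were seen. Some genes that this rule covers are not reported here.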

Additional observations from a re-analysis of the deposited data

How the results depend on the processing

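The count of axis genes called, 2 as reported, was 7 with no filter on low counts, 5 with DESeq2, 0 with the male RNA covariate and between 2 and 7 with each library left out, and stayed at 2 under the other scalings, limma-voom and robust fitting. Over all genes, 959 calls became 1767 with library sizes alone (88.6% of calls higher, against 67.2% as reported), 2768 with no filter, 1647 with DESeq2, 65 with the male RNA covariate and between 343 and 2081 with each library left out. The fit with no filter tested 25648 genes, against 14600 as reported and with the replicate block. Library sizes alone moved the median of all genes by 0.29 on the log2 scale. Same-numbered libraries did not deviate together (correlation -0.13) and share only a number; a replicate block called 1 axis gene (Igfbp3, with Igfbp2 at -1.39 and adjusted p = 0.0532) and 390 genes in all, and a crossed replicate block, chosen after seeing the data, called 5 and 1366. Signs turned for Socs2 (0.17 with library sizes alone, 0.45 with the male RNA covariate, -0.51 to 0.37 with each library left out), Stat5a (0.12 with library sizes alone, -0.53 to 0.27 with each library left out), Stat5b (0.11 with library sizes alone, 0.18 with the covariate), Insr (0.15 and 0.28, and -0.38 to 0.067 with each library left out), Stub1 (0.19 with library sizes alone), Btrc (-0.12 to 0.77 with each library left out), Cish (-0.40 with the covariate) and Igfbp1 (0.14 with the covariate). With library sizes alone, each gene that turned had a reported log2 fold change smaller in size than the 0.29 shift of all genes. The cause of the changes in the other fits was not tested. With 2 libraries a group, an axis gene that missed the threshold is not shown to be unchanged.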
